A study of Drosophila melanogaster with 75 samples.

Results

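Genes of the respiratory chain and the ATP synthase were examined in heads of male *Drosophila melanogaster* collected 2 hrs after mating, after courtship of a female, or without a female. The members are all 91 genes whose symbol in the reference annotation starts with ND- (complex I), Sdh (complex II), UQCR- (complex III), COX (complex IV) or ATPsyn (ATP synthase). Of these, 73 had a probe set assigned to them alone, among 11894 such genes on the array, and 50 of the 73 had a mean intensity above 100 and were tested. The males were isogenized Canton-S virgins, 5 days old, housed singly from the day before the test. Control males were left without a female, courted males were placed with a cauterized virgin female, and mated males were placed with a virgin female and copulated. Each of the 15 RNA pools (5 control, 5 courted, 5 mated) held 30 heads and was hybridized to 1 Affymetrix Drosophila Genome 2.0 array. A pool is thus an average over many males and over all tissues of the head, and fewer cells of a type and less RNA per cell cannot be told apart in it.

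The respiratory chain sits in the inner mitochondrial membrane. Complexes I and II pass electrons from NADH and succinate to ubiquinone, complex III passes them on to cytochrome c, and complex IV passes them to oxygen. Complexes I, III and IV pump protons, and the ATP synthase uses the return flow of protons to make ATP. In the fly head, neurons and photoreceptors are known for their high demand for ATP. Several subunits have a like-named paralog, whose symbol is that of the subunit followed by L and at times a number. For *COX6AL* and *COX6AL2* (*levy*), *COX6CL* (*cype*) and *ATPsynepsilonL* (*sun*) the subunit goes by the other symbol in brackets and is not a member. In flies many duplicated genes of this system are known for expression in the testis.

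One array stood apart from the rest. On the array of courted replicate 4, the log2 ratio of the probe sets for the 3′ end to those for the 5′ end in MAS5.0 was 3.56 for actin, 1.99 for GAPDH and 4.55 for eIF-4a, while the other arrays lay between 0.606 and 1.15, between 0.565 and 1.01 and between 0.904 and 1.60. This ratio is a measure of RNA quality. Differences that involve courted males are also given without that array where its removal moved them by more than 1.5 times, turned their direction or raised an unadjusted p to 0.05 or more. Array medians in MAS5.0 ran from 43.1 to 64.5 in intensity, and the correlation between any pair of arrays over the probe sets tested in GC-RMA was between 0.993 and 0.999. Markers of photoreceptors (3 of 3 measured), glia (4 of 4), haemocytes (4 of 4), fat body (3 of 4) and muscle (3 of 6) were above 100. Of the 4 neuronal markers measured only *nSyb* was, and *elav*, *brp* and *para* had means of 10.2, 62.0 and 5.85. All 8 testis markers were below 100, and their summed intensity was between 41.3 and 45.0 on every array.

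Subunits themselves were mostly above the intensity threshold, and their like-named paralogs were mostly below it. The neuronal markers *elav*, *brp* and *para* also lay below it, so a mean below 100 does not show that a gene is absent from the head. Of the 24 paralogs, 21 had a probe set of their own, and 1 of them had a mean above 100 in GC-RMA (1 also in MAS5.0). This was *COX7AL2*, whose intensity lay between 3917 and 5427 over the arrays. Its probe set name ends in _s_at, the manufacturer's mark for probes that can match several transcripts, so its signal may not be its own. The same mark is on 11 of the 50 members tested, among them *ND-19*, *ND-B14.7* and *ATPsynE*, whose values are given gene by gene. The 20 others had means between 3.84 (*ND-51L1*) and 13.6 (*ATPsynepsilonL*). Of the 52 members that are not such paralogs and had a probe set of their own, 49 were above 100. Over all 18769 probe sets of the array, 40.7% were above 100 in GC-RMA.

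By complex, the subunits and assembly factors other than these paralogs were above 100 in 25 of 27 measured cases for complex I, 4 of 4 for complex II, 3 of 4 for complex III, 7 of 7 for complex IV and 10 of 10 for the ATP synthase. The exceptions were *UQCR-11* (30.5), *ND-B12* (20.3) and *ND-B8* (5.68), and *ND-B12* had a mean of 184.8 in MAS5.0, above the threshold there. The member just inside the threshold was *Sdhaf3*, an assembly factor of complex II, with a mean of 196.7. There were 18 pairs in which both the subunit and the paralog were measured, including those of *levy*, *cype* and *sun*. In 16 of them the subunit was above and the paralog below 100, in GC-RMA and in MAS5.0 alike, the pair with *COX7AL2* was above in both, and the pair of *UQCR-11* and *UQCR-11L* was below in both. The call depends on the algorithm. In dChip PM with its threshold of 50, 16 of the 21 paralogs (76.2%) and 82.8% of all probe sets were above. The remaining 18 members, which include the mitochondrially encoded *COX1*, *COX2* and *COX3* and the flavoprotein gene *SdhA*, were not analysed here, and 3 of them (*ATPsynG*, *COX6B* and *ND-AGGG*) shared their only probe set with another gene. Subunits encoded in the mitochondrial genome were likewise not analysed here.

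**Figure D1:**
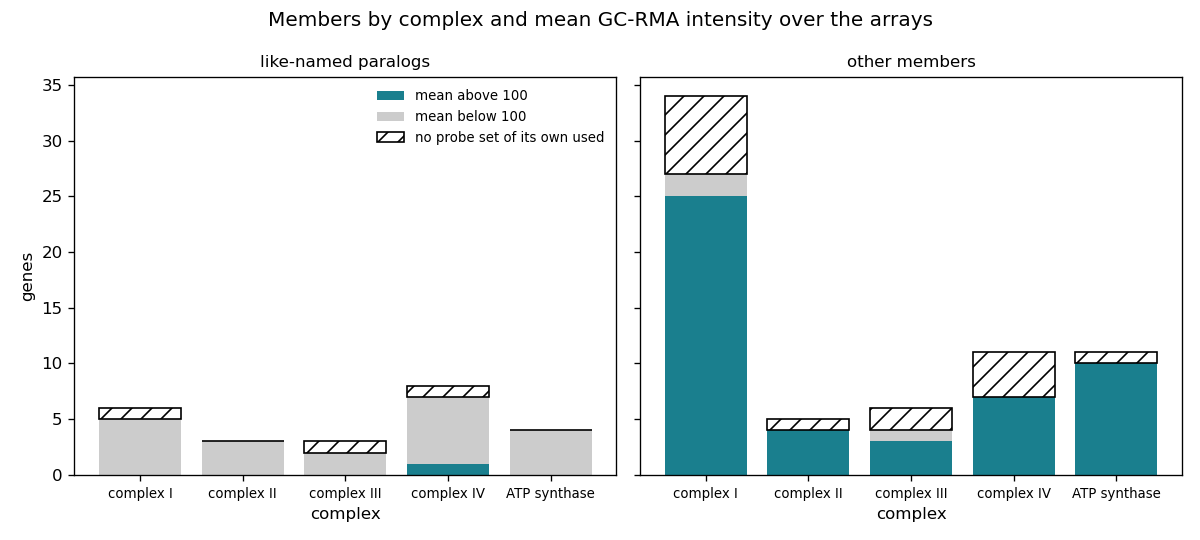
Number of member genes by complex (bars, vertical axis in genes), for like-named paralogs and for the other members, split by whether the mean GC-RMA intensity over the 15 arrays was above 100. The only paralog above 100 is COX7AL2 in complex IV, while 49 of the 52 other members measured are above it.

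The 50 members tested varied little from array to array. Their median SD within groups was 0.083 on the log2 scale, against 0.126 over the 7631 probe sets tested. The members were not matched with probe sets of like intensity, so whether a lower SD is particular to them was not tested. By complex the median SD was 0.091 for complex I, 0.14 for complex II, 0.059 for complex III, 0.069 for complex IV and 0.075 for the ATP synthase.

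The members with the smallest SD in complexes I, III and IV and in the ATP synthase stayed within a narrow band in all 3 groups. The one of complex II, *SdhC*, had an SD of 0.084 and a range of 0.35 over the 15 arrays. It is described with the courted males. *UQCR-Q*, a small subunit of complex III, had log2 intensities of 11.44, 11.43, 11.50, 11.43 and 11.42 in control replicates 1 to 5, 11.47, 11.43, 11.47, 11.44 and 11.40 in courted replicates 1 to 5 and 11.44, 11.44, 11.45, 11.39 and 11.42 in mated replicates 1 to 5. Its range over the 15 arrays was 0.11. *ATPsynB*, the b subunit of the peripheral stalk of the ATP synthase, had 13.84, 13.90, 13.91, 13.84 and 13.88 in control replicates 1 to 5, 13.81, 13.90, 13.88, 13.82 and 13.82 in courted replicates 1 to 5 and 13.81, 13.88, 13.88, 13.86 and 13.87 in mated replicates 1 to 5. The groups overlapped for both genes. *ND-MLRQ*, the fly counterpart of mammalian NDUFA4, was counted with complex I by its symbol alone. It had 14.44, 14.31, 14.42, 14.38 and 14.35 in control replicates 1 to 5, 14.41, 14.49, 14.47, 14.47 and 14.41 in courted replicates 1 to 5 and 14.37, 14.40, 14.46, 14.43 and 14.47 in mated replicates 1 to 5. It is among the few members whose courted and mated means, 14.45 and 14.43, were above the control mean of 14.38, and the groups overlapped. *COX7A*, a nuclear-encoded subunit of complex IV, had 14.09, 14.10, 14.16, 13.98 and 14.03 in control replicates 1 to 5, 13.98, 14.05, 14.15, 14.11 and 14.00 in courted replicates 1 to 5 and 14.08, 14.09, 14.07, 14.05 and 14.04 in mated replicates 1 to 5. Its mated arrays lay inside the range of the control arrays.

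Members moved together on single arrays. On control replicate 3, 98% of the 50 members were above their own mean over the 15 arrays, with a median deviation of 0.12, while 46.6% of all probe sets tested were above theirs, with a median of -0.011. All complexes were above their means (complex II in 3 of 4 members), with medians of 0.15 for complex I, 0.10 for complex II, 0.10 for complex III, 0.12 for complex IV and 0.072 for the ATP synthase. Courted replicate 3 had 88% of members above their mean (median 0.083), and courted replicate 5 had 14% (median -0.089). The 5 mated arrays stayed between -0.051 and 0.019. In MAS5.0 the medians were 0.19 on control replicate 3, 0.061 on courted replicate 3 and -0.096 on courted replicate 5, and in dChip PM they were 0.058, 0.036 and -0.063. On control replicate 3 the median over all probe sets tested was 0.065 in dChip PM, so the members did not stand above it there. The algorithms disagreed on control replicate 2, where the median of the members was 0.031 in GC-RMA and -0.093 in MAS5.0, and on courted replicate 4, where it was -0.0021 in GC-RMA, 0.0040 in dChip PM and -0.13 in MAS5.0.

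**Figure D2:**
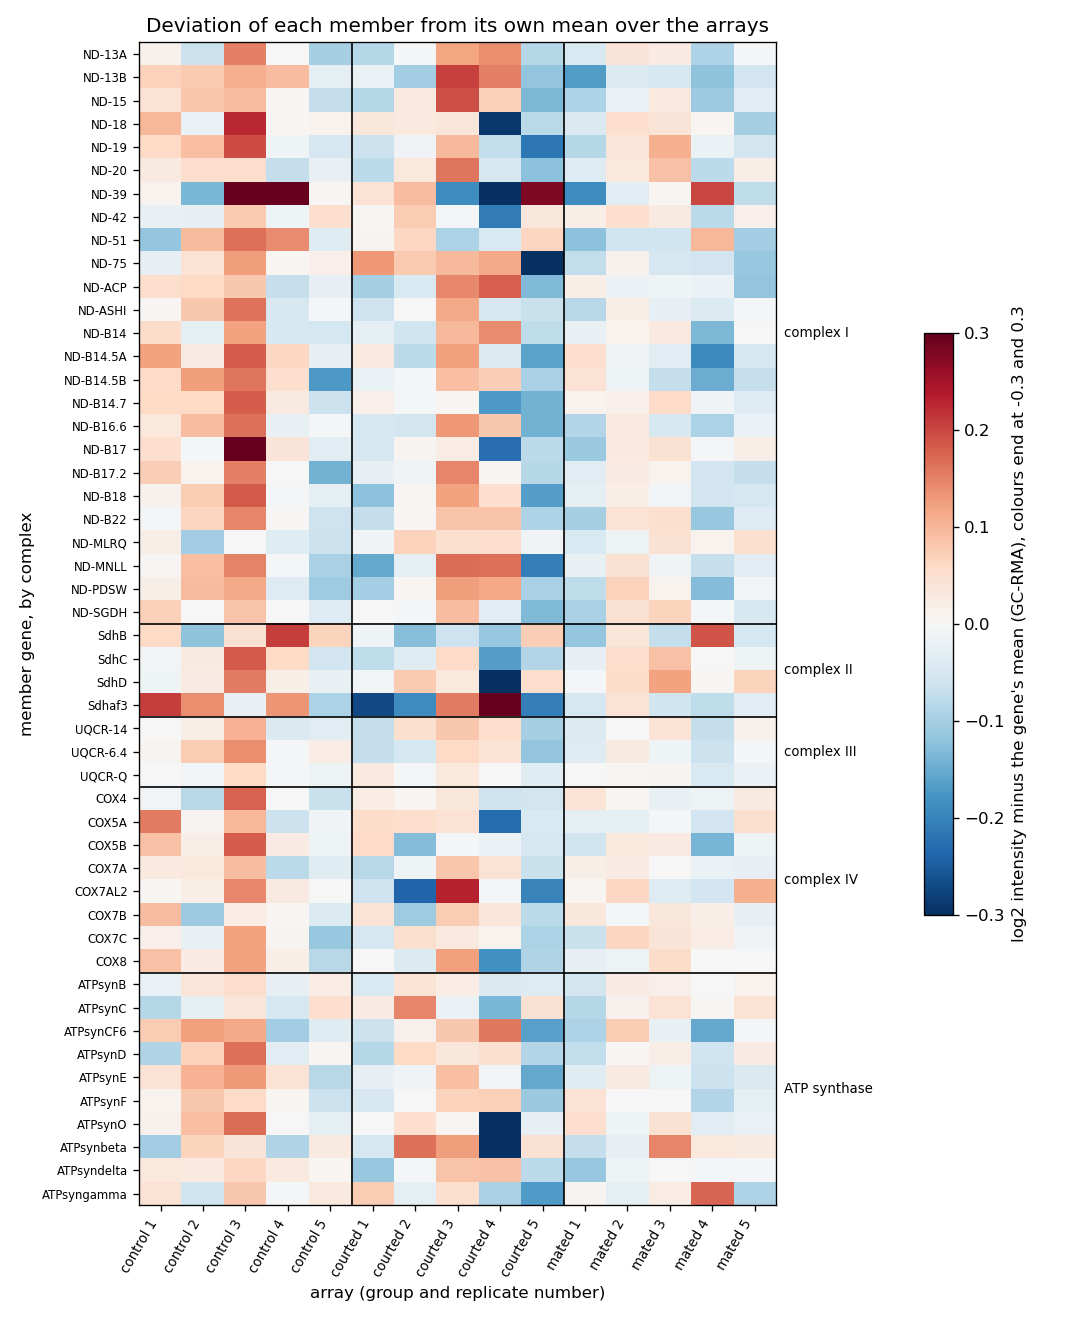
Deviation of each of the 50 members tested (rows, by complex) from its own mean over the 15 arrays (columns, by group and replicate number), as log2 GC-RMA intensity. Nearly the whole column of control replicate 3 is above the mean (98% of the members), and courted replicate 5 is mostly below it (14% above).

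**Figure D3:**
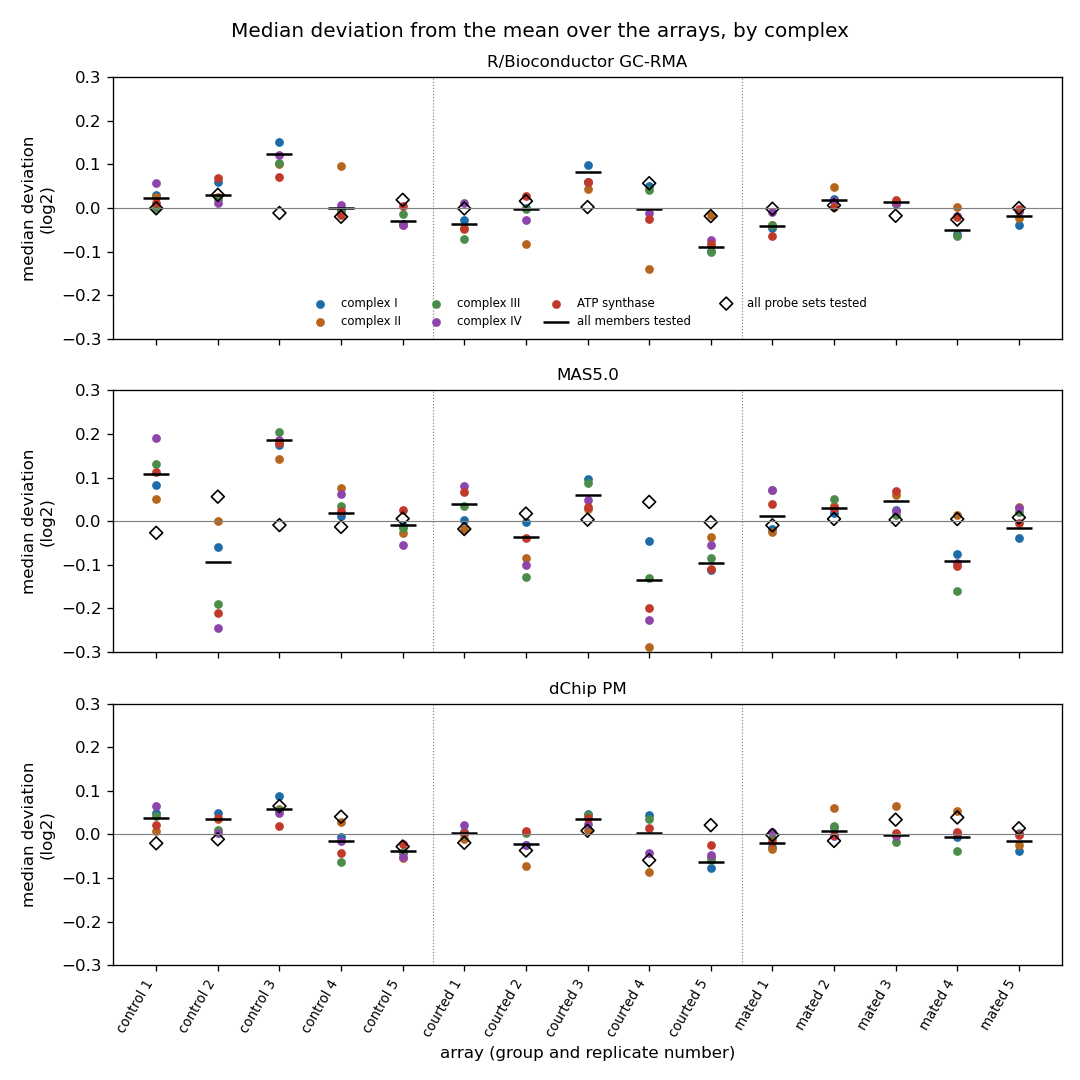
Median deviation from the mean over the 15 arrays (log2) for the members of each complex, all members tested and all probe sets tested, by array, in R/Bioconductor GC-RMA, MAS5.0 and dChip PM. Control replicate 3 is the highest array for all members in each algorithm, at 0.12, 0.19 and 0.058.

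The comparison of mated with control males asks whether gene expression in the head differs after mating. None of the 50 members differed past the threshold, and most had slightly lower values in mated males. Of the 50, 43 had a log2 difference under 0 (57.2% of all probe sets tested did), and the median of the members was -0.045, against -0.015 over all probe sets tested. Complex I, as grouped by symbol, had the lowest median, -0.062, with 24 of 25 members lower. The exception was *ND-MLRQ*, at 0.046. The medians of the others were -0.037 for complex II (3 of 4 lower), -0.022 for complex III (3 of 3), -0.015 for complex IV (5 of 8) and -0.036 for the ATP synthase (8 of 10). With each array centred on the median of all probe sets tested, 37 of the 50 members were lower, with a median of -0.029. The arrays of the same number form a set, and within sets the median of the members was -0.062, -0.024, -0.10, -0.043 and 0.019 for sets 1 to 5. Members moved together on arrays, so the 43 are not independent observations and their share is not a test.

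In limma, with p-values adjusted by Benjamini and Hochberg's method across the 7631 probe sets tested, 0 of the 50 members passed an adjusted p under 0.05, and 0.0393% of all probe sets did. The lowest adjusted p of a member was 0.670. An unadjusted p under 0.05 was reached by 2 members in limma (7.10% of all probe sets), both lower in mated males (4.23% of all probe sets were lower at that p), by 3 in limma-trend and by 2 in a paired Bayesian test like that of Cyber-T, with 0 passing after adjustment in any of these tests. The 95% intervals show how large a difference in GC-RMA intensity these arrays leave room for. They are given gene by gene, without adjustment for the number of members, and RNA was not measured in another way here. They lay within a 1.2-fold change in either direction for 47 of the 50 members, the exceptions being *ND-13B*, *ND-39* and *Sdhaf3*, and within 1.5-fold for all 50. Without control replicate 3 the median was -0.037, with 39 of 50 lower, and without all 3 arrays of set 3 it was -0.028.

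*ND-13B*, the fly counterpart of NDUFA5, a subunit of the arm of complex I that faces the matrix, had the lowest p. Its log2 intensities were 11.35, 11.36, 11.39, 11.37 and 11.25 in control replicates 1 to 5, 11.26, 11.18, 11.48, 11.43 and 11.16 in courted replicates 1 to 5 and 11.11, 11.24, 11.23, 11.16 and 11.22 in mated replicates 1 to 5. All mated arrays were below all control arrays, though the nearest pair was at 11.24 and 11.25, and the courted arrays overlapped with both. Mated males averaged 11.19 ± 0.055 (SD, n = 5), and control males averaged 11.34 ± 0.054 (SD, n = 5). The log2 difference was -0.15 (SE 0.059, 95% interval -0.28 to -0.022), lower in 5 of 5 sets, with an adjusted p of 0.670 in limma.

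*ND-B14.5A*, the counterpart of NDUFA7, had 12.15, 12.05, 12.21, 12.09 and 12.00 in control replicates 1 to 5, 12.05, 11.95, 12.15, 11.99 and 11.87 in courted replicates 1 to 5 and 12.08, 12.02, 11.99, 11.83 and 11.98 in mated replicates 1 to 5. It was lower in mated than in control males in 5 of 5 sets, and the groups overlapped. The log2 difference was -0.12 (SE 0.050, adjusted p = 0.681 in limma). *ATPsyndelta*, a subunit of the central stalk of the ATP synthase, was the other member whose mated and control arrays did not overlap, which made 2 of the 50 members, against 1.43% of all probe sets tested. It was named after its values were seen. Its control arrays lay between 12.83 and 12.88 and its mated arrays between 12.71 and 12.82, with a log2 difference of -0.058 (SE 0.042, adjusted p = 0.816 in limma).

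*COX5B*, a nuclear-encoded subunit of complex IV, had 13.79, 13.72, 13.88, 13.72 and 13.68 in control replicates 1 to 5, 13.76, 13.57, 13.70, 13.68 and 13.65 in courted replicates 1 to 5 and 13.64, 13.73, 13.72, 13.56 and 13.69 in mated replicates 1 to 5. Mated replicate 4 and courted replicate 2 were the lowest arrays and control replicate 3 the highest. The log2 difference between mated and control males was -0.091 (SE 0.050, adjusted p = 0.728 in limma), and it was 0.17 in MAS5.0, so its direction is not settled. *UQCR-6.4*, a small subunit of complex III, had 13.83, 13.89, 13.96, 13.81 and 13.84 in control replicates 1 to 5, 13.75, 13.77, 13.88, 13.86 and 13.70 in courted replicates 1 to 5 and 13.78, 13.84, 13.81, 13.75 and 13.81 in mated replicates 1 to 5. It was lower in mated males in 5 of 5 sets, with a log2 difference of -0.067 (SE 0.044, adjusted p = 0.797 in limma). *ATPsynE*, the e subunit in the membrane part of the ATP synthase, had 13.81, 13.87, 13.90, 13.81 and 13.69 in control replicates 1 to 5, 13.74, 13.76, 13.86, 13.76 and 13.62 in courted replicates 1 to 5 and 13.73, 13.80, 13.76, 13.71 and 13.73 in mated replicates 1 to 5. Mated arrays lay within the range of the control arrays, and the log2 difference was -0.074 (SE 0.041, adjusted p = 0.731 in limma).

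*Sdhaf3*, required for the maturation of the iron-sulphur subunit of complex II, had 7.82, 7.75, 7.59, 7.74 and 7.52 in control replicates 1 to 5, 7.34, 7.42, 7.77, 7.93 and 7.41 in courted replicates 1 to 5 and 7.56, 7.65, 7.55, 7.54 and 7.58 in mated replicates 1 to 5. Courted replicate 4 was its highest array and courted replicate 1 its lowest. The difference between mated and control males was -0.11 (SE 0.10, adjusted p = 0.862 in limma) and 0.023 in MAS5.0. It was -0.15 without control replicate 3 and -0.043 without control replicate 1.

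**Figure D4:**
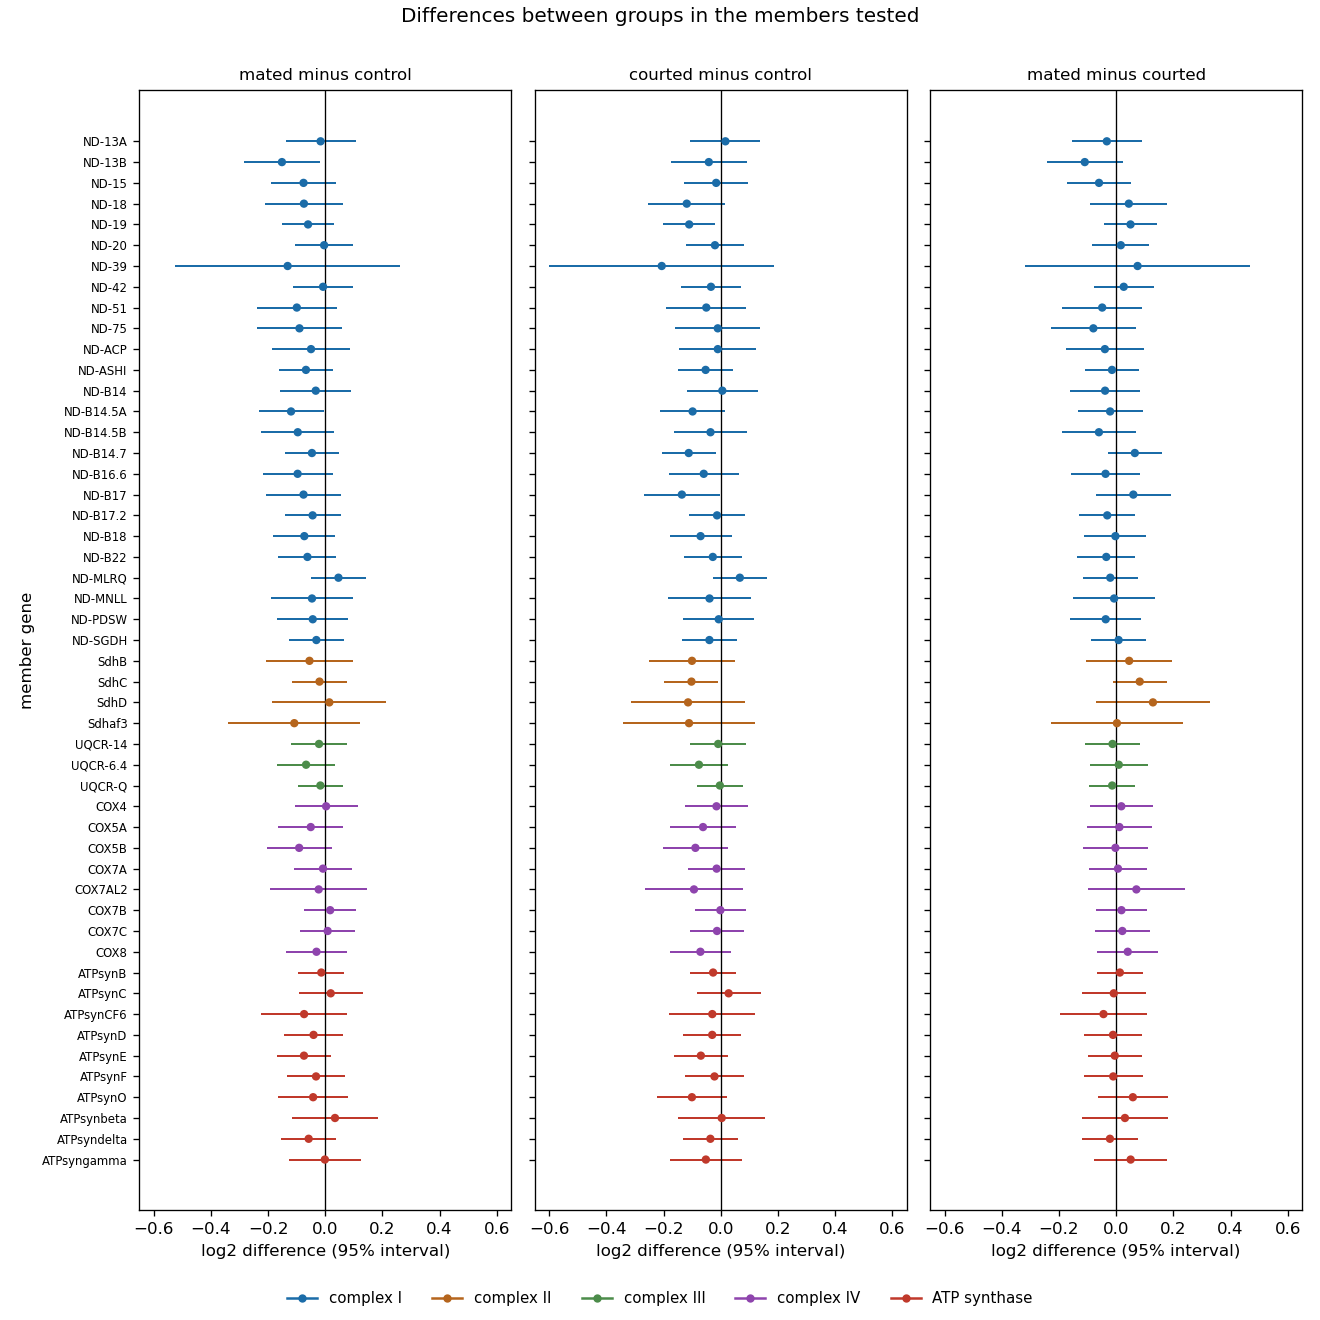
Log2 difference (points) and 95% interval (lines) from limma for each of the 50 members tested in the 3 comparisons, coloured by complex. In the comparison of mated with control males 43 points lie below 0, in that of courted with control males 45, and in that of mated with courted males 26.

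The comparison of courted with control males asks the same of males that met a female they could court. It shares its control arrays with the comparison above, so the counts are not independent of each other. Here too the members moved together on arrays and are not independent observations. Again none of the 50 members passed, and 45 had a log2 difference under 0, against 48.6% of all probe sets tested. The median of the members was -0.038, against 0.0033 over all probe sets tested. Medians by complex were -0.039 for complex I (22 of 25 lower), -0.11 for complex II (4 of 4), -0.0088 for complex III (3 of 3), -0.038 for complex IV (8 of 8) and -0.030 for the ATP synthase (8 of 10). Without courted replicate 4, 47 members were lower with a median of -0.049, and the medians of complex II, complex III and the ATP synthase were -0.058, -0.036 and -0.051. Without courted replicate 5 the median of all members was -0.020. Between same-numbered courted and control arrays that median was -0.070, -0.033, -0.034, 0.0028 and -0.046 for numbers 1 to 5, though the methods pair only control and mated pools. The highest members were *ND-MLRQ* at 0.067 (SE 0.042) and *ATPsynC*, which forms the rotor ring of the ATP synthase, at 0.028 (0.060 without courted replicate 4).

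In limma 0 of the 50 members had an adjusted p under 0.05, as did 0% of all probe sets tested, and the lowest adjusted p of a member was 0.893. An unadjusted p under 0.05 was reached by 4 members (5.02% of all probe sets), all lower in courted males (2.06% of all probe sets were lower at that p), by 4 in limma-trend and by 0 in the test in the manner of Cyber-T, and 0 passed after adjustment in either. The 4 were *ND-19*, *ND-B14.7*, *SdhC* and *ND-B17*, and 0 members reached that p without the replicate block. Without courted replicate 4 there were 2 members at that p (5.77% of all probe sets), *ND-19* and *UQCR-6.4*, the latter at -0.11 in place of -0.076. The intervals lay within 1.2-fold for 46 members, the exceptions being *ND-39*, *SdhD*, *Sdhaf3* and *ND-B17*, and within 1.5-fold for all but *ND-39* (48 and all 50 without courted replicate 4). No member had courted and control arrays without overlap, which 0.524% of all probe sets had.

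*ND-19*, the counterpart of NDUFA8, had 11.97, 12.00, 12.10, 11.89 and 11.86 in control replicates 1 to 5, 11.84, 11.89, 12.00, 11.83 and 11.69 in courted replicates 1 to 5 and 11.82, 11.94, 12.01, 11.89 and 11.85 in mated replicates 1 to 5. Courted replicate 5 was the lowest array and control replicate 3 the highest, and courted males were lower in 5 of 5 sets. The methods pair only control and mated pools, and deviations of same-numbered courted and control arrays had correlations between -0.31 and 0.33. The log2 difference was -0.11 (SE 0.040, adjusted p = 0.893 in limma), and -0.12 without courted replicate 4. *ND-B14.7*, the counterpart of NDUFA11, had 12.61, 12.61, 12.73, 12.58 and 12.49 in control replicates 1 to 5, 12.57, 12.55, 12.56, 12.38 and 12.41 in courted replicates 1 to 5 and 12.56, 12.57, 12.61, 12.54 and 12.51 in mated replicates 1 to 5. It was lower in courted males in 5 of 5 sets, at -0.11 (SE 0.041, adjusted p = 0.893 in limma), and at -0.089 without courted replicate 4.

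Subunits SdhC and SdhD anchor complex II in the membrane. *SdhC* had 12.60, 12.63, 12.79, 12.67 and 12.55 in control replicates 1 to 5, 12.53, 12.57, 12.67, 12.44 and 12.52 in courted replicates 1 to 5 and 12.58, 12.66, 12.70, 12.61 and 12.59 in mated replicates 1 to 5, with courted replicate 4 the lowest array and control replicate 3 the highest. Its log2 difference between courted and control males was -0.10 (SE 0.041, adjusted p = 0.893 in limma), lower in 5 of 5 sets, and -0.076 without courted replicate 4. *SdhD* had 12.74, 12.78, 12.91, 12.77 and 12.73 in control replicates 1 to 5, 12.74, 12.83, 12.78, 12.19 and 12.80 in courted replicates 1 to 5 and 12.74, 12.80, 12.87, 12.75 and 12.82 in mated replicates 1 to 5. Courted replicate 4, at 12.19, lay far below every other array of the gene, and the difference of -0.11 (SE 0.089, adjusted p = 0.904 in limma) was -0.0022 without it.

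*ATPsynO*, the oligomycin sensitivity-conferring subunit of the stalk, had 13.97, 14.05, 14.13, 13.96 and 13.93 in control replicates 1 to 5, 13.96, 14.01, 13.97, 13.66 and 13.94 in courted replicates 1 to 5 and 14.01, 13.95, 14.01, 13.93 and 13.94 in mated replicates 1 to 5. Its difference was -0.10 (SE 0.054, adjusted p = 0.893 in limma) with courted replicate 4 and -0.050 without it. *ND-39*, the counterpart of NDUFA9, had 12.86, 12.71, 13.21, 13.19 and 12.86 in control replicates 1 to 5, 12.90, 12.95, 12.66, 12.16 and 13.13 in courted replicates 1 to 5 and 12.66, 12.82, 12.86, 13.05 and 12.78 in mated replicates 1 to 5. With an SD of 0.26 over the 15 arrays it was the most variable member, and its difference of -0.21 (SE 0.18, adjusted p = 0.909 in limma) was -0.00058 without courted replicate 4. *COX7AL2* had 12.18, 12.19, 12.32, 12.20 and 12.18 in control replicates 1 to 5, 12.11, 11.94, 12.41, 12.17 and 11.98 in courted replicates 1 to 5 and 12.18, 12.24, 12.14, 12.12 and 12.28 in mated replicates 1 to 5. Courted replicate 3 was its highest and courted replicate 2 its lowest array, and the difference was -0.093 (SE 0.075, adjusted p = 0.909 in limma). It was -0.16 without courted replicate 3 and -0.044 without courted replicate 2.

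**Figure D5:**
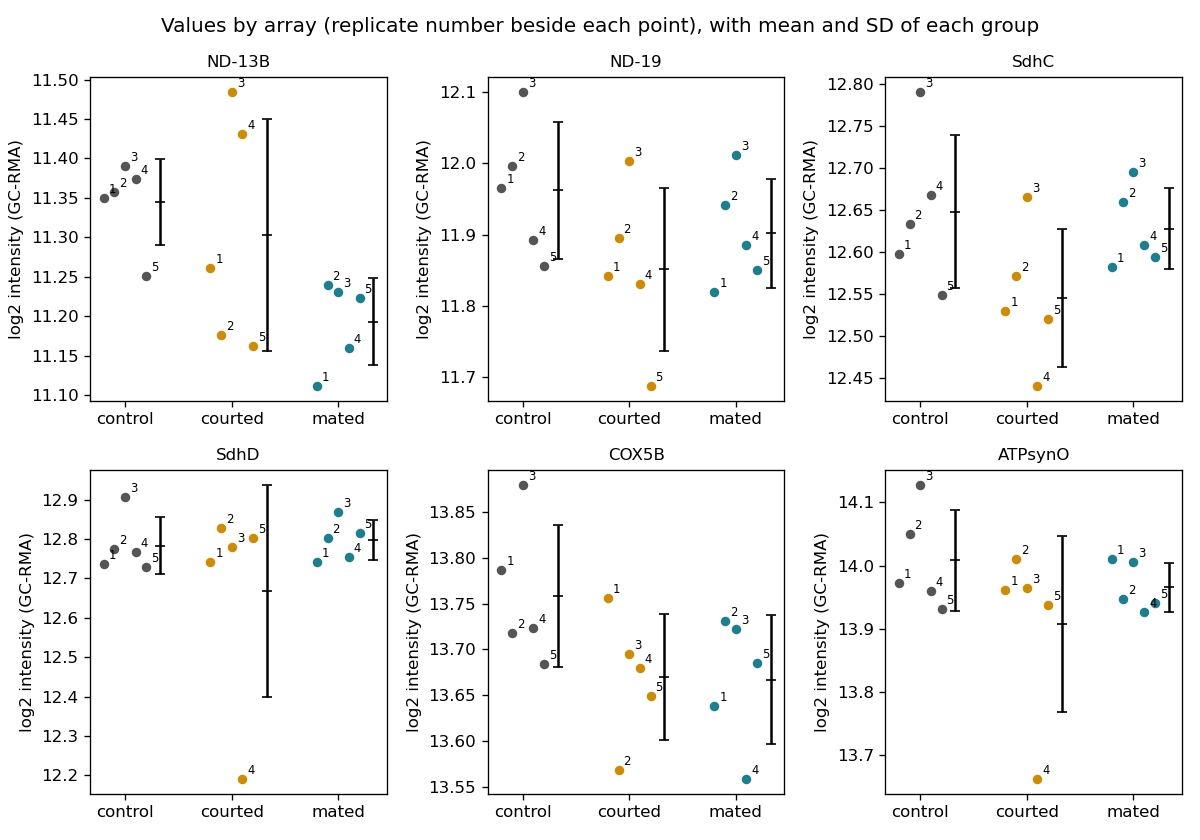
Log2 GC-RMA intensity of 6 members on each of the 15 arrays, by group, with the replicate number beside each point and the mean and SD of each group (bars, n = 5). SdhD and ATPsynO have their lowest value on courted replicate 4 (12.19 and 13.66), and the mated arrays of ND-13B lie below its control arrays.

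The comparison of mated with courted males sets copulation with a virgin female against courtship of a cauterized virgin female. The groups thus differ in the kind of female as well as in copulation, and the 2 cannot be told apart. The members were evenly split, with 26 of 50 lower in mated males, against 60.3% of all probe sets tested, and a median of -0.0027, against -0.018 over all probe sets tested. In complex I 17 of 25 members were lower (median -0.021), while complex II had 4 of 4 members higher (median 0.064) and complex IV 7 of 8 (median 0.018). Complex III had 2 of 3 lower and the ATP synthase 6 of 10. Without courted replicate 4 the median of all members was 0.0083, with 19 of 50 lower, that of complex II was 0.036 (3 of 4 higher), and 13 of 25 members of complex I were lower (median -0.00036). The medians of complex III and the ATP synthase, -0.013 and -0.0067 with all arrays, were 0.014 and 0.0091 without it. With each array centred on the median, 21 of 50 were lower.

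In limma 0 of the 50 members had an adjusted p under 0.05 (0.0524% of all probe sets tested did), 0 had an unadjusted p under 0.05 (4.18%), and the lowest adjusted p was 0.981. In limma-trend and the test in the manner of Cyber-T 0 passed after adjustment, and 1 and 0 had an unadjusted p under 0.05. The intervals lay within 1.2-fold for 48 members, the exceptions being *ND-39* and *SdhD*, and within 1.5-fold for all 50. *SdhC* had the lowest p, at 0.082 (SE 0.041, adjusted p = 0.981 in limma). It was higher in mated males in 5 of 5 sets, though the methods do not pair mated with courted pools. *ND-13B* followed at -0.11 (SE 0.059) and *ND-B14.7* at 0.065 (SE 0.041). Without courted replicate 4 the differences of these genes were 0.056, -0.077 and 0.043. No member had mated and courted arrays without overlap, which 0.944% of all probe sets had. In an F-test over the 3 groups 0 members passed (0.0524% of all probe sets did), 0 had an unadjusted p under 0.05 (5.46%), and the lowest adjusted p in limma was 0.910.

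Different probe sets of a gene did not always run together. *ATPsynbeta*, the catalytic subunit of the ATP synthase, had 2 probe sets. The dimmer gave 0.12 (SE 0.050, adjusted p = 0.893 in limma) between courted and control males and the brighter 0.0035 (SE 0.067). With courted replicate 4 left out they were at 0.12 and 0.075, and the unadjusted p of the dimmer went from 0.0356 to 0.0575. The 3 probe sets of *ND-ACP*, the mitochondrial acyl carrier protein, were at -0.050, -0.033 and -0.045 in mated against control males. *ND-B17*, the counterpart of NDUFB6, was at -0.14 (SE 0.058) between courted and control males in its brighter probe set and at -0.21 (SE 0.16) in the other. In the latter, courted replicate 4 was at 11.04 and the lowest of the other arrays at 11.87. Without that array the brighter was at -0.099 and the other at -0.0076. Those of *ATPsyngamma*, the central shaft, were at -0.052 and -0.10 in courted against control males, and at -0.020 and -0.047 without courted replicate 4. Those of *COX7B* above the threshold were at -0.0011 and -0.048, and at -0.0094 and -0.091 without it. *COX7B* and *COX7C* each had a further probe set below 100.

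Other genes of the pathway did not pass the test either. Of 11 subunits whose symbols do not share the prefixes, 7 were above 100, and their medians were -0.024, -0.030 and 0.025 in mated against control, courted against control and mated against courted males, with 0 called in each and 6, 5 and 3 of 7 lower. Without courted replicate 4 the last 2 of these medians were -0.017 and -0.0045. The lowest p in mated against control males were those of *Cyt-c1*, the cytochrome c1 of complex III, at -0.039 (SE 0.049), and of *blw*, the alpha subunit of the ATP synthase, at -0.033 (SE 0.047). The paralog *Cyt-c1L* was below 100, with a mean of 8.10. Assembly factors (7 above 100) had medians of -0.071, -0.043 and -0.020 and 0 called, and -0.072 and 0.0036 for the last 2 without courted replicate 4. *Bcs1*, which inserts the Rieske protein into complex III, was at -0.15 (SE 0.065, adjusted p = 0.685 in limma) in mated against control males, and *CIA30*, a complex I assembly factor, at -0.071 (SE 0.049).

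Enzymes of the citric acid cycle (8 above 100) had medians of -0.040, -0.0034 and -0.013 and 0 called, and 0.031 and -0.062 for the last 2 without courted replicate 4. In mated against control males *mAcon1*, an aconitase, was at -0.062 (SE 0.042) and *ScsbetaA*, of succinyl-CoA synthetase, at -0.047 (SE 0.038). Carriers and regulators (9 above 100) had medians of -0.011, -0.0060 and -0.0062 and 0 called, and 0.027 and -0.033 for the last 2 without courted replicate 4. An unadjusted p under 0.05 was reached by 2 of them in courted against control males, *Bmcp*, a mitochondrial carrier, at 0.18 (SE 0.060, adjusted p = 0.893 in limma) and *Ets97D*, the fly GABP alpha, at 0.18 (SE 0.074). They were at 0.18 and 0.12 with courted replicate 4 left out, and the unadjusted p of *Ets97D* was then 0.0992. In mated against courted males *Bmcp* was at -0.15 (SE 0.060, unadjusted p = 0.0333 in limma, and 0.0560 without courted replicate 4). *Ets97D* was at 0.15 (SE 0.074) and *Ant2*, an ADP/ATP carrier, at -0.11 (SE 0.061) in mated against control males. *Ant2* had a mean of 109.1, near the threshold. Its control replicates 2 and 3 were at 7.07 and 6.95, and every other array was at 6.76 or lower. *Sirup*, an assembly factor of complex II that was singled out because its values were known, was at -0.28 (SE 0.066, adjusted p = 0.274 in limma) in mated against control males and at -0.24 (SE 0.066, adjusted p = 0.706 in limma) in mated against courted males.

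Of the markers of other cells, 1 gene of the fat body passed the test, and the part of such cells in the members' values was not tested. Summed over the list, muscle markers lay between 8165 and 9431 in control, 7540 and 9345 in courted and 7602 and 9235 in mated males, and photoreceptor markers between 82374 and 87385, 75237 and 88267, and 84462 and 86492. Neuronal markers, of which only *nSyb* was above 100, lay between 1356 and 2609, 956 and 3223, and 1450 and 2565. On courted replicate 4 the sums were 7540 for muscle, 75237 for photoreceptors and 969 for neurons, and the lowest of the other courted arrays were at 7686, 82710 and 956. Glial markers lay between 15599 and 18364 in control, 16288 and 19327 in courted and 17925 and 21537 in mated males, with all 4 higher in mated than in control males (median 0.16), where 57.2% of all probe sets tested were lower, and 0 called. Haemocyte markers lay between 4890 and 5962, 5657 and 6838, and 5906 and 7277, again with all 4 higher (median 0.19) and 0 called. Of the 3 fat body markers above 100, *fit* passed in mated against control males (log2 difference 0.56, SE 0.069, adjusted p = 0.0243 in limma), and the sum lay between 36568 and 40998, 37374 and 40356, and 38275 and 43336. *Lsp2*, a larval serum protein gene of the fat body, was at -0.41 in the same comparison without passing the test. The authors list *fit* as higher and *Lsp2* as lower after mating from the same control and mated arrays. These 2 values are thus not independent of that result and do not measure the amount of fat body. *Fbp1*, of the fat body, and the muscle genes *TpnC4*, *fln* and *Act88F* were below 100.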

How the data were processed

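Head RNA of 15 pools was measured on 15 arrays. The authors derived linear intensity values per probe set with 5 algorithms, namely MAS5.0 (GCOS 1.2), the perfect-match (PM) and PM-MM models of dChip, and GC-RMA as run in GeneSpring or in R/Bioconductor. The deposited table holds 75 columns. The 5 versions of an array counted as 1 replicate. For other versions and for the genome build, nothing was stated by the labels or the methods. The R/Bioconductor GC-RMA intensity was the main value. The GeneSpring intensity values were not used, because 1 entry is empty and those after it stand 1 place too low (correlation with GC-RMA of 0.0124 as deposited and 0.988 when moved). Values were raised to at least 1 before log2 was taken, and were not normalized again. Of 18952 probe sets, 183 control probe sets were left out, and 7631 with a mean above 100 over the 15 arrays were tested. The thresholds of 100 and, for dChip, of 50 are those of the methods.

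Genes were named through the platform annotation (gene identifiers) and the symbols of RefSeq for the Release 6 plus ISO1 MT assembly. Only probe sets assigned to 1 gene were used, and the brightest stood for the gene. The 15 arrays entered 1 linear model in R 4.3.3 (limma 3.58.1, moderated by eBayes) of group plus replicate number, the latter as a block, and p-values were adjusted by Benjamini and Hochberg's method. The labels say that a male of each group was collected together, and the methods pair control and mated pools. Deviations from the group means of same-numbered mated and control arrays had correlations of 0.33, 0.46, 0.48, 0.43 and 0.089. Those of courted and control arrays lay between -0.31 and 0.33, and those of mated and courted arrays between -0.45 and 0.16. The test in the manner of Cyber-T took its prior SD from 101 neighbouring probe sets, with a prior weight of 10. Scripts were tested on simulated data.

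The members and lists were chosen with earlier results of these data known. Values per array are given for the members with the lowest p in each comparison and in the F-test (3 each), those with the largest difference from control males in each complex, and those with the smallest SD in each complex, and differences are given for the 2 genes of each other list with the lowest p in mated against control males. The bounds of 1.2-fold and 1.5-fold were chosen after values were seen. Promoter and protein sequences were not analysed here. Figures were made with Python 3.11.15 and matplotlib 3.10.9. Alternatives were other algorithms, filters, centring, tests, probe sets and arrays left out. Pools are the replicates, and their number limits the precision.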

Additional observations from a re-analysis of the deposited data

Results flagged for a closer look

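Single arrays stood away from the other 4 of their group in 7 of 54 groups of values examined (the 17 members named by rule and the median deviation of all members, in 3 groups each). Independent groups chosen without their values would give about 1 in 20 by chance. That rate does not apply here, because the members were named for their differences or their SD, which single arrays can set, and because members moved together on arrays. In each, the gap to the nearest array took more than 0.71 of the range of the group. Control replicate 3 was high for *SdhD* (12.91, next 12.78), *COX7AL2* (12.32, next 12.20) and *UQCR-Q* (11.50, next 11.44). Courted replicate 4, the array with the high 3′ to 5′ ratios, was low for *SdhD* (12.19, next 12.74) and *ATPsynO* (13.66, next 13.94). Control replicate 5 was low for *ND-13B* (11.25, next 11.35), and mated replicate 1 was low for *ATPsynB* (13.81, next 13.86). What sets these arrays apart was not tested.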

How the results depend on the processing

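The count of members called stayed at 0 in each of the 3 comparisons under all alternatives run. These were no replicate block, dChip PM, dChip PM-MM, MAS5.0, no filter, a threshold of 500 and centred arrays. Others were limma-trend, only the 10 arrays compared, the dimmest probe set, the test in the manner of Cyber-T and each array or set left out. Under no filter 6, 9 and 2 of 73 members had an unadjusted p under 0.05, and 23 of the 73 had means below 100. Unadjusted counts without filter or block, in limma-trend and in the Cyber-T style test have no share over all probe sets beside them. They are not read as a result about the members. Without the replicate block the medians are the same by construction in this balanced design (-0.045, -0.038 and -0.0027), and 1, 0 and 0 members had an unadjusted p under 0.05, against 2, 4 and 0 with it. With arrays or sets left out, the median lay between -0.063 and -0.028 for mated against control males, between -0.051 and -0.020 for courted against control males and between -0.020 and 0.019 for mated against courted males, and the number of members called was 0 to 0. On the same 50 probe sets the medians were -0.024, -0.023 and -0.0013 in dChip PM, -0.036, -0.061 and 0.032 in MAS5.0 and -0.012, -0.020 and 0.0054 in dChip PM-MM, choices added after the data were seen. Directions reversed for *COX5B* (0.17 in MAS5.0 and 0.014 in dChip PM-MM) and *Sdhaf3* (0.023 in MAS5.0) in mated against control males. With arrays or sets left out, *SdhD* in courted against control males ran from -0.16 without replicate 5 to 0.0011 without replicate 4. Leaving out replicate 4 drops the arrays of that number in all 3 groups, among them the courted array of high 3′ to 5′ ratio. The cause of these reversals was not tested. *Sdhaf3* gave no value at the threshold of 500.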
